A study of Mus musculus with 8 samples.

Results

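Growth hormone and STAT5 axis genes are 10 genes of the liver's response to growth hormone, picked out of the 45706 genes counted. They are the receptor gene Ghr, the transducers Stat5a and Stat5b, the feedback inhibitors Socs2 and Cish, the repressors Bcl6 and Cux2, and the outputs Mup3, Mup20 and Selenbp2. They were listed by gene symbol, and the list was drawn up because Mup3 was lower and Selenbp2 higher in livers labelled KO than in livers labelled WT. The KO against WT differences of all 10 are therefore given as a description, without a test. The measurements are RNA-seq read counts from the livers of 4 mice labelled HuR KO and 4 mice labelled HuR WT, on a C57BL/6 background, with 1 library per mouse. HuR, the product of Elavl1, is an RNA-binding protein, and no treatment is given for either group. The part of Elavl1 that was deleted, the cells in which it was deleted, any Cre driver and the age of the mice are not given in the sources used here.

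Growth hormone binds its receptor on hepatocytes and activates the kinase JAK2, which phosphorylates STAT5A and STAT5B, and these enter the nucleus and bind DNA. STAT5 induces the inhibitors Socs2 and Cish, which damp the receptor's signal, and drives hepatic output genes such as Igf1. In mice the pituitary releases growth hormone in sharp pulses in males and more evenly in females, and this pattern sets the sex bias of many liver genes. BCL6 and CUX2 are repressors of that system, Cux2 being a female-biased gene of mouse liver and Bcl6 a male-biased one. Mup3, Mup20 and Selenbp2 are known as male-biased outputs.

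STAT5 binds palindromes of the form TTCNNNGAA, and the windows from 250 bases before to 50 bases after the annotated starts were searched for it. The motif is its own reverse complement, so a match on either strand is the same match. Windows were found for 8 of the 10 members, 13 windows in all, and 3 windows of 2 members, Cish and Bcl6, held the motif. Socs2 and Mup20 had no window and were not searched. Over all annotated starts, 2726 of 32851 windows (8.3%) held at least 1 match, 0.457% held 2 or more and 0.0335% held 3 or more. The windows of Cish and Bcl6 are shown because they hold 2 and 3 matches, and those of Mup3 and Selenbp2 because the list was drawn up on these 2 genes and their windows hold 0. They are RefSeq sequences of GRCm38.p6 written 5′ to 3′ on the strand of the gene, with matches in capitals. They are chr9:107296409-107296708 on the plus strand for Cish, chr16:23981234-23981533 on the minus strand for Bcl6, chr4:62087268-62087567 on the minus strand for Mup3 and chr3:94693323-94693622 on the plus strand for Selenbp2. The Cish and Bcl6 windows lie at annotated starts inside the genes, and the other Bcl6 window, at chr16:23988803-23989102, held 1 match. In Cish the matches begin 0 and 11 bases after the annotated start, not before it.
Cish: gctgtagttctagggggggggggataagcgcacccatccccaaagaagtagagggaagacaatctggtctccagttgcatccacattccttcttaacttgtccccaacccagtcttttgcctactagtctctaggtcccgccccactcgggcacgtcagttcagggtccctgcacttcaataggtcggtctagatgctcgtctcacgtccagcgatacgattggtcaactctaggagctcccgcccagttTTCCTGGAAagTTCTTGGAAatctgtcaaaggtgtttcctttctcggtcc
Bcl6: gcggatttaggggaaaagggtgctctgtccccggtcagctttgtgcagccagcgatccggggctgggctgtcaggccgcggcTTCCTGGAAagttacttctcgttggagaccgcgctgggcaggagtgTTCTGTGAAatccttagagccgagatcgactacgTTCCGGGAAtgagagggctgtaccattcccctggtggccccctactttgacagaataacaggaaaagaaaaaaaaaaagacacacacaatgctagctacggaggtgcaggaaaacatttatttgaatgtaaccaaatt
Mup3: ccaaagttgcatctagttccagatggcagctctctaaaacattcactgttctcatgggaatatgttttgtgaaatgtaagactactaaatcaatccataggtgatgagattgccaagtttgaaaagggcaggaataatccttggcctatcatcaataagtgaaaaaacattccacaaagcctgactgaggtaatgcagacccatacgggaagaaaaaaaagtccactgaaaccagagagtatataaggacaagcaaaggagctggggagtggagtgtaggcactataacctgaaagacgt
Selenbp2: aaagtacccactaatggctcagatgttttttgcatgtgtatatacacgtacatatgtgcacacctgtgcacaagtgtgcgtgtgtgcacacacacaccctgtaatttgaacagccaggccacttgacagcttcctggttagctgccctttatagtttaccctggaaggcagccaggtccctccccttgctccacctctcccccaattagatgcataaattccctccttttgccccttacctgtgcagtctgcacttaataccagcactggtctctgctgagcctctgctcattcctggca
A match is a description of these letters and not a measured binding site.

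Total gene counts ranged from 25377376 to 27626128 in the libraries labelled KO and from 18649618 to 31249286 in those labelled WT. All 10 members passed the low-count filter, which 14645 genes passed. Levels are CPM, read counts set to a common library size and scaled by TMM, the trimmed mean of M values. Elavl1 averaged 50.02 ± 4.33 CPM in the libraries labelled KO and 42.0 ± 6.41 CPM in those labelled WT (SD, n = 4 each). It was thus not reduced under the KO label (log2 fold change 0.25, SE 0.11, adjusted p = 0.258 by edgeR's quasi-likelihood test, adjusted over all genes by Benjamini-Hochberg), and the groups are named here by their labels. Per library Xist had 16005 to 33496 counts and none of 4 Y-linked genes had more than 1, the pattern of female mice, so the male-biased genes were measured in female livers. Animal numbers in the sample titles run from 98 to 100 for KO replicates 3 and 4 and WT replicate 3, and have 4 digits for the other 5 libraries. What separates these number series is not stated.

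Summed CPM of 14 bile duct markers ranged from 353 to 433 in the libraries labelled KO and from 198 to 227 in those labelled WT, and 10 of them rose at an edgeR adjusted p under 0.05, the threshold for a gene called here. Of the 14645 genes tested, 3.69% were called between the groups, 2.32% higher and 1.37% lower. For 10 stellate cell and fibroblast markers the ranges were 483 to 571 and 394 to 437 CPM, and 4 rose. For 10 hepatocyte markers they were 126278 to 148305 and 135183 to 151496 CPM, and none of these was called. Endothelial markers summed to 480 to 543 CPM in the libraries labelled KO and 448 to 509 CPM in those labelled WT, macrophage markers to 441 to 552 and 413 to 530 CPM, and lymphocyte markers to 19.6 to 25.3 and 19.2 to 30.5 CPM, and no member of these 3 lists was called. None of the markers was at 0 in all libraries. Of the 14 bile duct markers 13 passed the low-count filter and were tested, and of the 10 lymphocyte markers 7, so the rest could not be called. The part of these markers in the results below was not tested, and in bulk liver fewer cells of a type cannot be told apart from less RNA per cell.

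**Figure D1:**
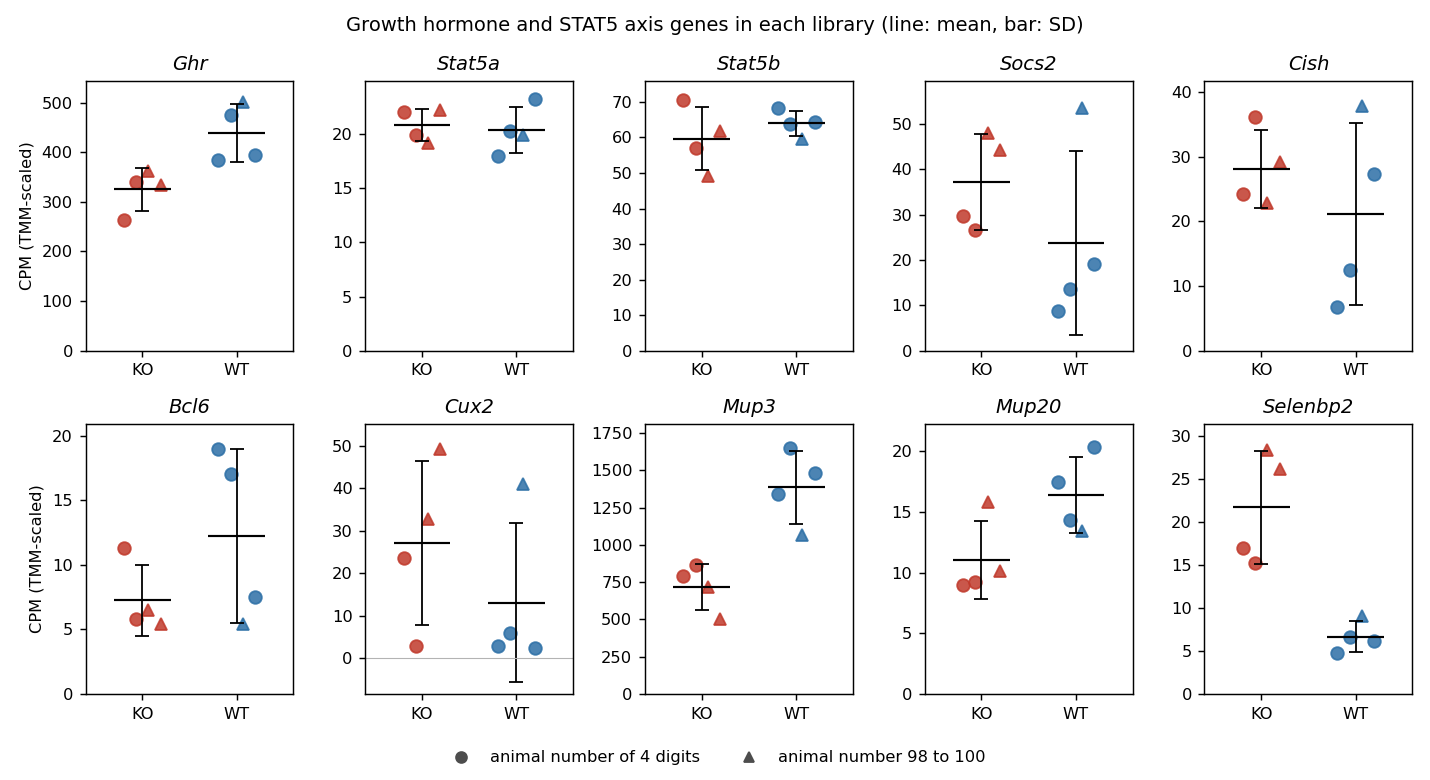
CPM of the 10 members in each library, KO left of WT in each panel, with the group mean as a line, the SD as a bar, circles for animal numbers of 4 digits and triangles for numbers 98 to 100. Selenbp2 lies above and Mup3 and Ghr lie below the WT libraries in every KO library, and in Socs2 and Cux2 the WT triangle lies close to the KO triangles and away from the WT circles.

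Ghr, which encodes the growth hormone receptor (ENSMUSG00000055737, mm10 chromosome 15, 3317760 to 3583492, minus strand), was lower in every library labelled KO than in any labelled WT. Its level was 263, 339, 363 and 334 CPM in KO replicates 1 to 4, against 385, 474, 501 and 394 CPM in WT replicates 1 to 4. The groups do not overlap, and KO replicate 3 and WT replicate 1 lie closest to each other. The means were 325 ± 42.8 CPM in livers labelled KO and 439 ± 57.8 CPM in livers labelled WT (SD, n = 4 each), a log2 fold change of −0.43 (SE 0.12). The difference of mean log2 CPM was −0.48 within the 4-digit number series introduced above and −0.52 within the series 98 to 100.

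The transducers lay within the spread between animals. Stat5a (ENSMUSG00000004043, mm10 chromosome 11, 100859351 to 100885169, plus strand) was at 22.02, 19.9, 19.2 and 22.2 CPM in KO replicates 1 to 4 and at 18.0, 20.3, 19.96 and 23.2 CPM in WT replicates 1 to 4. Stat5b (ENSMUSG00000020919, mm10 chromosome 11, 100780731 to 100850724, minus strand), which encodes the main hepatic STAT5, was at 70.5, 57.2, 49.3 and 61.7 CPM in KO replicates 1 to 4 and at 68.3, 63.9, 59.6 and 64.4 CPM in WT replicates 1 to 4. For both genes the groups overlap. The log2 fold changes were 0.03 (SE 0.11) for Stat5a and −0.10 (SE 0.11) for Stat5b.

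The feedback inhibitors varied more between animals of one group than between the groups. Socs2 (ENSMUSG00000020027, mm10 chromosome 10, 95385362 to 95417180, minus strand) encodes an inhibitor that binds the activated receptor. It was at 29.6, 26.7, 48.1 and 44.3 CPM in KO replicates 1 to 4 and at 8.78, 13.6, 53.6 and 19.0 CPM in WT replicates 1 to 4. WT replicate 3 held the highest level of all 8 libraries, and the other 3 WT libraries lay below every KO library. The log2 fold change was 0.64 (SE 0.59). Cish (ENSMUSG00000032578, mm10 chromosome 9, 107296026 to 107302784, plus strand), a related inhibitor whose start window holds 2 motif matches, was at 24.2, 36.1, 22.9 and 29.1 CPM in KO replicates 1 to 4. In WT replicates 1 to 4 it was at 6.74, 12.5, 37.8 and 27.3 CPM. WT replicates 1 and 2 were the lowest libraries and WT replicate 3 the highest, so the groups overlap. The log2 fold change was 0.41 (SE 0.53). Among the animals with 4-digit numbers the difference of mean log2 CPM was 1.09 for Socs2 and 1.15 for Cish, and among those numbered 98 to 100, with 1 WT library, it was −0.22 and −0.55.

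The repressors also overlapped. Bcl6 (ENSMUSG00000022508, mm10 chromosome 16, 23965052 to 23988852, minus strand), whose internal start window holds 3 motif matches, was at 11.3, 5.79, 6.49 and 5.41 CPM in KO replicates 1 to 4. It was at 19.0, 17.02, 5.42 and 7.54 CPM in WT replicates 1 to 4. WT replicates 1 and 2 lay above all other libraries, and the other 2 WT libraries lay within the KO range. Cux2 (ENSMUSG00000042589, mm10 chromosome 5, 121856366 to 122050102, minus strand) was at 23.6, 2.84, 32.7 and 49.3 CPM in KO replicates 1 to 4 and at 2.73, 5.88, 41.0 and 2.44 CPM in WT replicates 1 to 4. The 8 libraries fall into 4 between 2.44 and 5.88 CPM and 4 between 23.6 and 49.3 CPM, and each set holds libraries of both labels, with the highest level 20.2-fold the lowest. The log2 fold changes were −0.76 (SE 0.45) for Bcl6 and 1.03 (SE 1.19) for Cux2. Without WT replicate 1 or 2 the value of Bcl6 was −0.47 or −0.56, and without WT replicate 3 that of Cux2 was 2.86, that of Socs2 1.44 and that of Cish 0.88.

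The outputs Mup3 and Selenbp2 differed most beyond the spread between animals, in opposite directions, although both are known as male-biased. Mup3, a major urinary protein gene (ENSMUSG00000066154, mm10 chromosome 4, 62083476 to 62087342, minus strand), was at 788, 862, 717 and 505 CPM in KO replicates 1 to 4, against 1343, 1649.6, 1069 and 1481 CPM in WT replicates 1 to 4. The KO libraries all lay below the WT libraries, with KO replicate 4 lowest and WT replicate 3 the lowest of its group. The means were 718 ± 154 CPM in livers labelled KO and 1386 ± 246 CPM in livers labelled WT, a log2 fold change of −0.95 (SE 0.17). Selenbp2 (ENSMUSG00000068877, mm10 chromosome 3, 94693556 to 94704413, plus strand), a selenium-binding protein gene, was at 16.99, 15.2, 28.4 and 26.2 CPM in KO replicates 1 to 4, against 4.74, 6.62, 9.09 and 6.10 CPM in WT replicates 1 to 4. Every KO library lay above every WT library. The means were 21.7 ± 6.55 CPM in livers labelled KO and 6.64 ± 1.82 CPM in livers labelled WT, a log2 fold change of 1.70 (SE 0.24) or 3.25-fold. Mup20 (ENSMUSG00000078672, mm10 chromosome 4, 62050234 to 62054158, minus strand), which encodes the male pheromone darcin, was at 9.02, 9.26, 15.8 and 10.1 CPM in KO replicates 1 to 4 and at 17.5, 14.3, 13.4 and 20.4 CPM in WT replicates 1 to 4. KO replicate 3 lay inside the WT range and the other KO libraries below it, with a log2 fold change of −0.57 (SE 0.19). The difference of mean log2 CPM of Mup20 was −0.91 within the 4-digit number series and −0.09 within the series 98 to 100, which has 1 WT library. In the same order, the differences were −0.85 and −0.83 for Mup3 and 1.47 and 1.58 for Selenbp2.

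Members whose groups do not overlap were 1 above (Selenbp2) and 2 below (Ghr and Mup3), where the groups of 11.2% of all genes tested did not overlap, 6.19% lying wholly above and 5.01% wholly below. Since the members were chosen on this contrast, their count is not read against those shares.

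**Figure D2:**
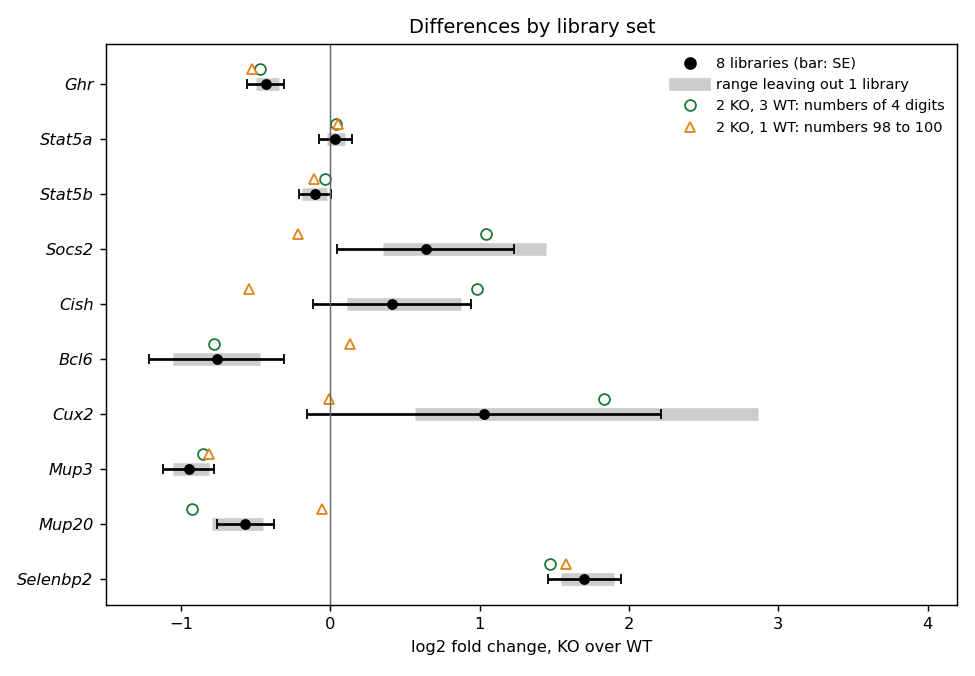
Log2 fold change of KO over WT for each member, with the 8-library value and its SE in black, the range when 1 library is left out as a grey bar, a green circle for the animals with 4-digit numbers (2 KO, 3 WT) and an orange triangle for those numbered 98 to 100 (2 KO, 1 WT). Mup3 runs from −1.05 to −0.81 and Selenbp2 from 1.55 to 1.90 when 1 library is left out, whereas Cux2 runs from 0.57 without KO replicate 4 to 2.86 without WT replicate 3.

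The level of the members spans a wide range, and of the neighbouring pairs in its order only the 2 at the top passed a test. Pairs farther apart were not tested, and the order was itself ranked on these libraries. Stat5b, for instance, at 8.89 to 12.7 CPM per kilobase, lay above Cish, at 1.05 to 5.89, in all 8 libraries. Per kilobase of exon, Mup3 had a mean of 985 CPM over 8 libraries, Ghr 42.2, Mup20 14.8, Stat5b 11.2, Selenbp2 6.23, Cish 3.83, Stat5a 2.89, Socs2 3.20, Bcl6 1.45 and Cux2 1.99 CPM, ordered by their mean log2 level. Mup3 exceeded Ghr by 4.47 ± 0.47 (SD) on the log2 scale and Ghr exceeded Mup20 by 1.53 ± 0.36, each in 8 of 8 libraries (exact sign-flip permutation test, two-sided, p = 0.00781, the smallest it allows, adjusted p = 0.0352 over the 9 neighbouring pairs). Below these, Stat5b and Selenbp2 differed by 1.11 ± 1.08, with Stat5b higher in 6 of 8 libraries (exact sign-flip permutation p = 0.0313, adjusted p = 0.0938), and no other neighbouring pair passed, with adjusted p from 0.141 to 0.844. Without any 1 of the libraries no pair passed, with Mup3 over Ghr and Ghr over Mup20 at adjusted p = 0.0703 by the sign-flip test. That outcome was set by the number of libraries, since with 1 fewer the test allows no smaller adjusted p for 2 of 9 pairs. The differences stayed at 4.40 to 4.59 and 1.48 to 1.61. In livers labelled KO Selenbp2 was at 9.54 ± 2.89 CPM per kilobase and Stat5b at 10.8 ± 1.603, and in livers labelled WT at 2.92 ± 0.80 and 11.6 ± 0.64 (SD, n = 4 each). Reads mapping to several places were not counted, while the full exon length was used, so genes with close copies may read too low. Of the 50-base windows of annotated transcripts, 49.5% for Mup20 and 56.1% for Selenbp2 occur in no other gene, against 100% for Ghr and 89.0% for Stat5b. The order was not corrected for this.

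The members differ in how far animals of one group stand apart. The within-group SD of log2 CPM was 1.84 for Cux2, 0.84 for Socs2, 0.82 for Cish and 0.71 for Bcl6, against a median of 0.16 over the 8642 genes with a mean log2 CPM above 3. Of those genes, 2 had a larger SD than Cux2, 34 a larger SD than Socs2, 37 than Cish and 60 than Bcl6. The SD was 0.42 for Selenbp2, 0.33 for Mup20, 0.30 for Mup3 and 0.20 for Ghr, with 315, 700, 871 and 3037 genes above them. Stat5b and Stat5a lay at 0.16 and 0.13, near that median. The high-spread members are the inhibitors and repressors, and the receptor and transducers lie nearest that median.

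**Figure D3:**
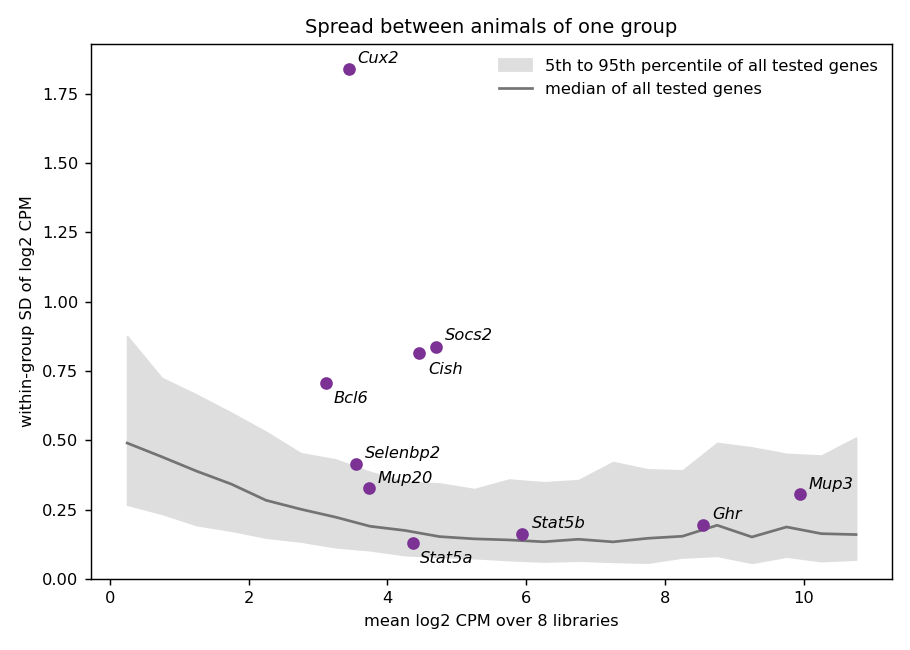
Within-group SD of log2 CPM against mean log2 CPM over 8 libraries for the 10 members, over the median (line) and the 5th to 95th percentile band of all tested genes. Cux2, Socs2, Cish and Bcl6 lie above the band, and Stat5a, Stat5b and Ghr lie within it.

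The number series, which the choice of members did not use, was compared within one fit with genotype. Libraries from animals numbered 98 to 100 had a Selenbp2 level 1.64-fold that of the libraries with 4-digit numbers (log2 difference 0.72, SE 0.13, edgeR adjusted p = 0.0118). Its range was 9.09 to 28.4 CPM in animals numbered 98 to 100 and 4.74 to 16.99 CPM in the others. Of all genes tested, 2.41% were called in this comparison, 1.43% higher and 0.976% lower, and of the members 1 was higher and 0 lower. The call for Selenbp2 was lost without KO replicate 2, KO replicate 4 or WT replicate 3, at adjusted p = 0.0620, 0.0501 and 0.0965. Mup3 had a log2 difference of −0.45 (SE 0.12, adjusted p = 0.0689), Socs2 1.28 (SE 0.34, adjusted p = 0.146) and Cux2 2.44 (SE 0.77, adjusted p = 0.215), none of them called by edgeR over the 8 libraries. DESeq2 called Socs2 and Cux2 higher and Mup3 lower between the series, with adjusted p = 0.0241, 0.0495 and 0.0122. By edgeR, Mup3 was called without KO replicate 3 (−0.59, adjusted p = 0.0354) and without a low-count filter (adjusted p = 0.000702), and Cux2 without KO replicate 1 (3.62, adjusted p = 0.00695). Socs2 was called without WT replicate 1 (1.12, adjusted p = 0.0499), and its difference was 0.71 without WT replicate 3 (adjusted p = 0.525). The interaction of genotype with the number series, which has 1 WT library among the animals numbered 98 to 100 and assumes that it varies like the others, was called for 3 of 14645 genes (0.0205%), with 938 at an unadjusted p under 0.05, and for no member. The smallest p were those of Socs2, with an interaction of −1.26 (SE 0.43), and Mup20, with 0.87 (SE 0.34), both at adjusted p = 0.690.

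Over the 8 libraries, with group means removed, 6 pairs of members chosen by their roles were compared. None passed adjustment over the 6 pairs (exact permutation within groups, two-sided). Socs2 and Cish had r = 0.78 (permutation p = 0.118, adjusted p = 0.370) and rho = 0.64 (permutation p = 0.25, adjusted p = 0.75). Without the 2 libraries farthest from the median of Socs2, r was 0.05. Leaving these out also removes much of the spread of Socs2, so the fall does not show what the relation rests on. Mup3 and Selenbp2 had r = −0.64 (permutation p = 0.123, adjusted p = 0.370) and rho = −0.60 (permutation p = 0.172, adjusted p = 0.75), with r = −0.22 without the 2 libraries farthest from the median. With the number series also removed, r was 0.87 for Socs2 and Cish, and it turned to 0.55 for Mup3 and Selenbp2. The other pairs, Mup3 with Mup20, Ghr with Mup3, Bcl6 with Cux2 and Stat5a with Stat5b, had r of 0.06, −0.27, −0.34 and 0.38, with adjusted p from 0.618 to 0.911. With the number series removed these were 0.49, 0.65, 0.63 and 0.40, with the sign turned for Ghr with Mup3 and for Bcl6 with Cux2. WT replicate 3, alone in its series, is then at 0 by construction, and the 2 KO libraries of each series mirror each other. The values with the series removed, for all 6 pairs, therefore cannot show whether a relation changes sign.

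The genes most like a member in their deviations from the group means were found among 8325 genes with a mean log2 CPM above 3, predicted gene models and genes without a symbol left out, with Pearson's r over the 8 libraries. For Mup3 they were Ddx27 (0.99), an RNA helicase gene, Ccdc47 (0.98) and Rpl22l1 (0.96). For Selenbp2 they were Mtor (0.997), a growth-regulating kinase gene, the cytochrome P450 gene Cyp2c69 (0.98) and Nol6 (0.97). For Cish they were Pycrl, Zranb2 and Sdr9c7 (0.98 each). These are the highest of 8325 values of r over only 8 libraries, were not tested, and do not show a link between the genes. Mtor ran from 48.7 to 70.5 CPM, a far narrower range than that of Selenbp2, 4.74 to 28.4 CPM. Cyp2c69 was at 127, 131, 432 and 365 CPM in KO replicates 1 to 4 and at 80.8, 222, 460 and 176 CPM in WT replicates 1 to 4. As in Selenbp2, its highest libraries in each group are those numbered 98 to 100, an order largely fixed by its choice for likeness to Selenbp2. The series difference of Cyp2c69 was 1.59 (SE 0.32) and not called (edgeR adjusted p = 0.0829).

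Of the other 15 tested major urinary protein genes, 13 had negative log2 fold changes and 2 positive ones, with a median of −1.01, where the median over all genes was −0.0046. Mup10 fell, at 3.60, 5.51, 5.13 and 6.05 CPM in KO replicates 1 to 4, against 8.60, 7.07, 11.5 and 11.4 CPM in WT replicates 1 to 4 (log2 fold change −0.92, SE 0.20, edgeR adjusted p = 0.0215). The call was lost without KO replicate 1, KO replicate 3 or WT replicate 4 (adjusted p = 0.0616, 0.0632 and 0.0610) and in the 4-digit series alone (adjusted p = 0.0666). Next by p came Mup11, at 4.80, 3.29, 8.16 and 7.52 CPM in KO replicates 1 to 4, against 9.84, 9.08, 15.002 and 14.9 CPM in WT replicates 1 to 4, a log2 fold change of −1.04 that missed the threshold (edgeR adjusted p = 0.0703). Its KO libraries all lay below its WT libraries. The log2 fold changes of Mup4, Mup5, Mup6, Mup7, Mup9, Mup12, Mup13, Mup16, Mup17, Mup18 and Mup19 ran between −1.61 for Mup9 and −0.87 for Mup19, and none of them was called. Mup2 and Mup21 were the positive ones, at 0.42 and 0.16, and not called either. In 8 of the 15 genes every KO library lay below every WT library, where 5.01% of all genes tested did. Several of the 8 are near-identical copies, so they cannot be taken as 8 separate measurements. Among them, Mup4, Mup9, Mup13 and Mup19 averaged under 1 CPM in livers labelled KO. Mup17 was at 3.06, 2.60, 13.6 and 10.9 CPM in KO replicates 1 to 4 and at 13.2, 16.7, 39.9 and 16.4 CPM in WT replicates 1 to 4. It was higher in animals numbered 98 to 100 in both groups, with a series log2 difference of 1.76 (SE 0.17, edgeR adjusted p = 7.3e-05). Mup18 was higher in them too, at 2.25 (SE 0.24, edgeR adjusted p = 0.000195), where the difference of Mup3 was −0.45 and not called.

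Near-identical copies limit these values, since reads that map to several places were left out of the counts. Of the 50-base windows of annotated transcripts, 86.7% occur in no other gene for Mup3, 49.5% for Mup20 and 56.1% for Selenbp2, whose other windows are shared with its paralog Selenbp1. Selenbp1 itself was at 179 ± 12.6 CPM in livers labelled KO and 200 ± 27.3 CPM in livers labelled WT (log2 fold change −0.16, SE 0.11, edgeR adjusted p = 0.483). Mup10 has 23.5% such windows, Mup11 22.2%, Mup9 20.9%, Mup16 8.29%, Mup13 7.2% and Mup19 0%, whereas Mup4 has 87.6% and Mup6 96%. Mup17 and Mup18, which were called between the number series, have 21.9% and 10.4%. The other members lie between 89.0% for Stat5b and 100% for Ghr and Bcl6. With windows of 100 bases the shares were 97.8% for Mup3, 61.2% for Mup20 and 82.6% for Selenbp2.

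**Figure D4:**
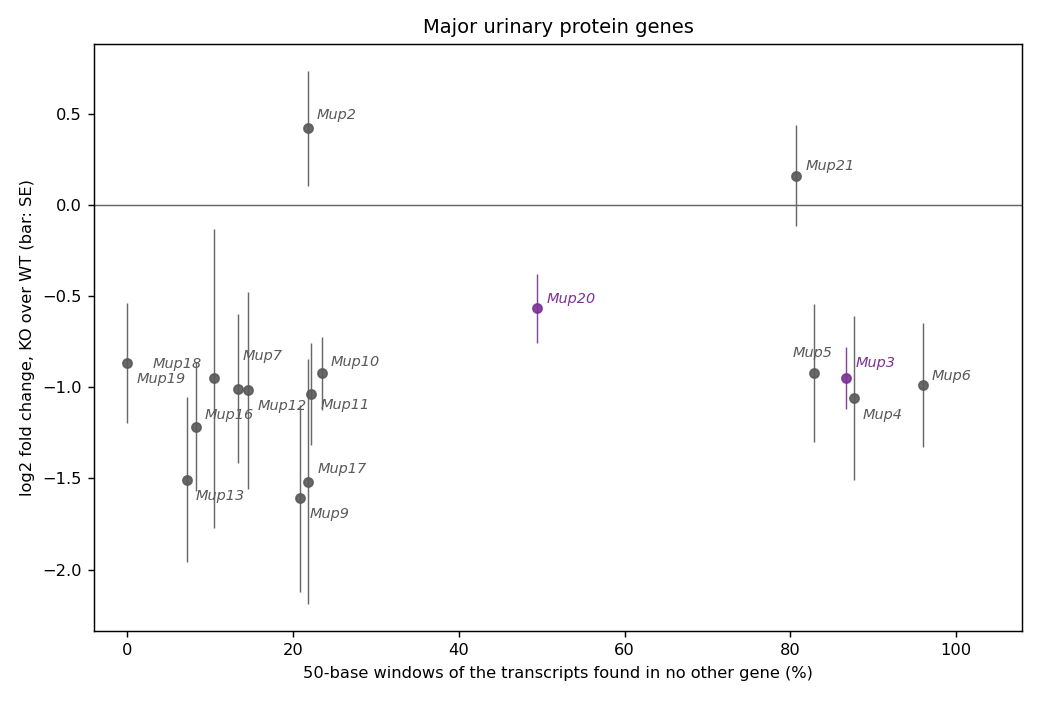
Log2 fold change of KO over WT, with its SE, against the share of 50-base transcript windows found in no other gene, for the tested major urinary protein genes, Mup3 and Mup20 in purple. All points lie below 0 except those of Mup2 and Mup21, at few and at many such windows alike.

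Other genes of the axis were counted from lists chosen with earlier results of these data known. No gene among 22 of receptor signalling and its brakes was called, where 3.69% of all genes tested were, a list too short to set against that share. The median log2 fold change of the 22 was −0.05. The smallest p was that of Socs3, a further feedback inhibitor, at 18.9 ± 5.98 CPM in livers labelled KO and 9.005 ± 2.54 CPM in livers labelled WT (log2 fold change 1.07, edgeR adjusted p = 0.0677). None of 13 tested growth hormone or STAT5 outputs was called between the groups, a number too small to set against 3.69%, with a median of 0.06. Igf1, the main hepatic growth factor downstream of the receptor, was at 475 ± 73.2 CPM in livers labelled KO and 455 ± 119 CPM in livers labelled WT (log2 fold change 0.06, SE 0.17, edgeR adjusted p = 0.896). The other outputs with the smallest p were Lepr (0.62, edgeR adjusted p = 0.167) and Pparg (−0.32, edgeR adjusted p = 0.381). Igf1 and Lifr were higher in animals numbered 98 to 100, with log2 differences of 0.49 and 0.45 (edgeR adjusted p = 0.0239 and 0.0455).

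The male-biased list had 17 tested genes, of which 2 fell, where 1.37% of all genes tested did, and 15 missed the threshold. Its median was −0.26. Slco1a1, an organic anion uptake transporter, was at 0.387, 0.659, 0.155 and 0 CPM in KO replicates 1 to 4, against 16.2, 19.1, 8.10 and 9.04 CPM in WT replicates 1 to 4 (edgeR adjusted p = 0.00341). Sult5a1, a sulfotransferase gene, was at 2.52, 0.728, 1.40 and 1.99 CPM in KO replicates 1 to 4, against 7.51, 6.95, 7.90 and 5.21 CPM in WT replicates 1 to 4 (edgeR adjusted p = 0.00218). For both, every KO library lay below every WT library. The female-biased list had 33 tested genes, of which 1 rose and 1 fell, where 2.32% and 1.37% of all genes tested did, and 31 missed the threshold. Its median was −0.02. The 1 that rose was Prom1, also a bile duct marker, at 12.1 ± 7.20 CPM in livers labelled KO and 2.72 ± 0.58 CPM in livers labelled WT (edgeR adjusted p = 0.0279), and its call was lost without KO replicate 4, without any 1 of the WT libraries (edgeR adjusted p from 0.0628 to 0.101) and without a low-count filter (edgeR adjusted p = 0.0817). The 1 that fell was Sult3a2, at 1.71 ± 0.60 and 5.29 ± 1.70 CPM (SD, n = 4 each, edgeR adjusted p = 0.00692).

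None of 15 paralogs of members was called, a number too small to set against the 3.69% of all genes tested, with a median of 0.00.

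**Figure D5:**
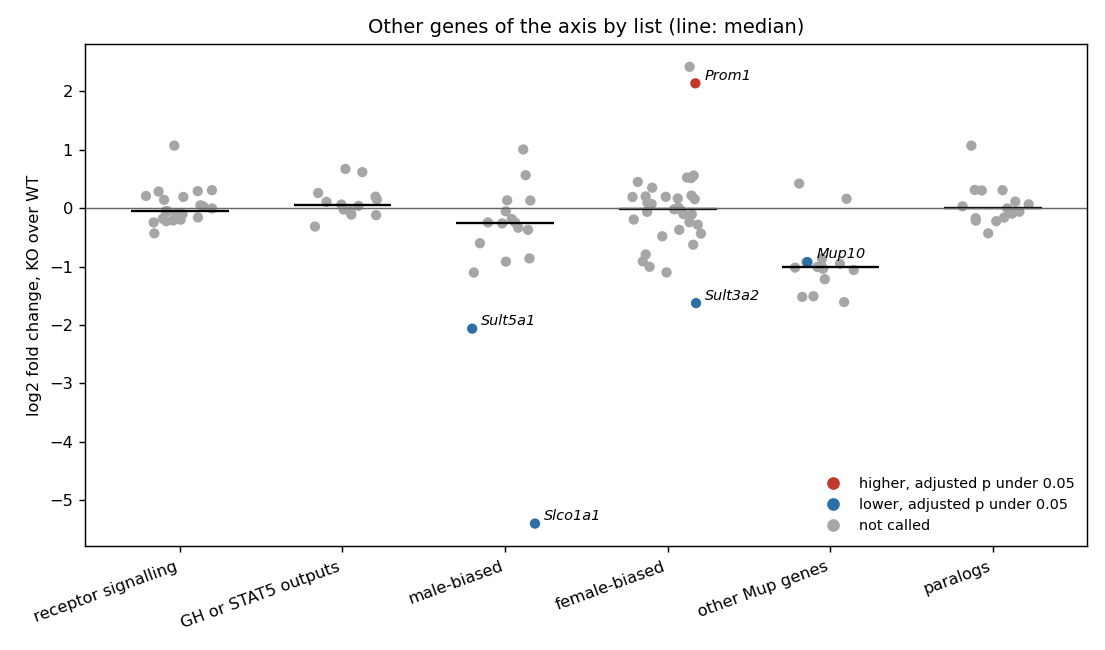
Log2 fold change of KO over WT for each tested gene of 6 lists, with the list's median as a line, genes called higher in red and called lower in blue. Slco1a1 lies lowest at −5.40, and the other Mup genes have the lowest median at −1.01.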

How the data were processed

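Raw read counts per gene, as deposited by the authors, were used for all 8 libraries. The submitters' processing notes name bcl2fastq 2.19.1, the aligner GSNAP, the counter featureCounts 1.5.1 and the build mm10 (GRCm38). Per the file headers, Ensembl 81 genes were counted with strand setting 2 and a minimum mapping quality of 1, without multi-mapping reads. Of 45706 gene rows 45143 matched a symbol, and 92 spike-in rows, all 0, were left out. With edgeR 4.0.16 under R 4.3.3, filterByExpr (minimum count 10) chose the genes, and libraries were scaled by TMM and compared by the quasi-likelihood test, adjusted by Benjamini-Hochberg over 14645 genes. Log2 CPM used a prior count of 2, and SEs came from the F statistic. Alternatives used limma 3.58.1 and DESeq2 1.42.0. The members and lists were chosen with earlier results of these data known. Named genes were all members, Elavl1, tested Mup genes, up to 4 called genes of each list by p, or 2 with the smallest p, and the 3 most like Mup3, Selenbp2 and Cish. Transcript windows came from GENCODE, which is later than the counted annotation. The count test was checked on simulated data. Replicates are separate animals. Some genes picked by this rule, and 1 list, are not reported here.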

Additional observations from a re-analysis of the deposited data

Results flagged for a closer look

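Of 34 groups of 4 libraries examined for a library far from the others, 2 were marked, and chance marks about 1 in 20. Cux2 reached 41.0 CPM in WT replicate 3, and the next highest WT library had 5.88 CPM, a gap of 0.911 of the group's range, above the critical value of Dixon's test. Mup20 reached 15.8 CPM in KO replicate 3, and the next highest KO library had 10.1 CPM, a gap of 0.839 of the range. Both libraries come from animals numbered 98 to 100.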

How the results depend on the processing

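Selenbp2 kept a positive log2 fold change under all alternatives, from 1.47 to 1.90, and Mup3 a negative one, from −1.05 to −0.81, and Ghr and Stat5b were negative throughout. Mup20 was negative too, but at −0.06 among animals 98 to 100, against −0.57 over all libraries. Socs2, Cish and Cux2 were positive in 18 of 19 settings and negative among animals 98 to 100, and Bcl6 was negative in 18 of 19. Against 340 genes called higher and 201 lower by edgeR, DESeq2 called 613 and 495, no low-count filter gave 328 lower, the number series as a covariate 308 lower, and the animals with 4-digit numbers alone 215 higher. Other pathway genes numbered 124 tested, with the list not reported here. Of these, 1 was called higher and 5 lower, where 2.32% and 1.37% of all genes tested were. DESeq2 called 4 and 14, the animals with 4-digit numbers gave 4 and 9, the replicate block 3 and 12, no filter 0 higher, limma-voom 8 lower and the series covariate 16 lower. Leaving out 1 library gave 151 to 710 genes higher and 71 to 534 lower, the lowest without WT replicate 2 and the highest without WT replicate 3. It gave 0 to 5 other pathway genes higher and 3 to 9 lower. Between the number series, 210 genes were called higher and 143 lower. No filter gave 546 and 352, DESeq2 393 and 267, and leaving out 1 library 31 to 250 and 25 to 149. The order of levels had 2 pairs past the threshold and 0 without any 1 library, where the test could no longer reach it for 2 pairs. The causes of the other changes were not tested. Same-numbered replicates were not treated as pairs, since their deviations from the group means correlated at 0.025, 0.025, 0.122 and −0.147, and only the libraries numbered 3 correlated best with their own number. Animals 98 to 100 hold 1 WT library, so values within them have no test, and genes under about 1 CPM, such as Slco1a1 in KO livers, rest on few counts.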

Other observations

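Cux2 was set beside other genes after its values were seen. The genes most like it in their deviations from the group means over the 8 libraries were Klf9 (r = 0.99), a transcription factor gene, Ciz1 (r = 0.99) and Nt5e (r = 0.99), a nucleotidase gene. Nt5e was at 113, 86.1, 126 and 142 CPM in KO replicates 1 to 4 and at 69.2, 83.0, 121 and 71.0 CPM in WT replicates 1 to 4. In each group the library or libraries numbered 98 to 100 were highest, an order largely fixed by its choice for likeness to Cux2. The range of Nt5e was far narrower than that of Cux2. These genes, too, have the highest of 8325 values of r over 8 libraries, which were not tested.

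Other sex-biased or growth hormone responsive genes also varied widely between libraries of one group, and were picked after their values were seen. Serpina1e, a male-biased protease inhibitor gene, was at 1024, 176, 139 and 124 CPM in KO replicates 1 to 4 and at 102, 115, 98.3 and 414 CPM in WT replicates 1 to 4. Egfr, an output gene, was at 141, 78.6, 352 and 263 CPM in KO replicates 1 to 4 and at 118, 126, 165 and 115 CPM in WT replicates 1 to 4. A1bg, a female-biased gene, was at 85.4, 37.6, 243 and 40.0 CPM in KO replicates 1 to 4 and at 58.2, 137, 298 and 72.5 CPM in WT replicates 1 to 4. Of 124 tested list genes, 11 were called higher and 2 lower in animals numbered 98 to 100, where 1.43% and 0.976% of all genes tested were. Of the male-biased list, Cyp2u1 was lower, with a log2 difference of −0.87 (edgeR quasi-likelihood test, adjusted p = 0.0100). Nudt7 and Ces3b of that list were higher, at 0.45 and 0.47 (same test, adjusted p = 0.0111 and 0.0292). The cause of these patterns was not tested.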
